A study of Mus musculus with 2 samples.

Results

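The genes examined were 38 genes with known roles in G2 phase and mitosis, taken as a list of symbols by a rule that uses no measured value. The list was, however, chosen with earlier results of these data known. A member was found when the RefSeq accession of a probe on the array belonged to its symbol. All 38 were found, through 54 probes, among 20823 genes with such a probe, of which 16608 were measured on both arrays. RNA came from Baf53a-deficient mouse ES cells expressing either Baf53a or Baf53b. Baf53a and Baf53b, the products of Actl6a and Actl6b, are alternative actin-related subunits of the BAF chromatin-remodeling complex. Both groups shared their parent, Baf53a conditional knockout (cKO) ES cells, a single clone of E14 ES cells in which CRISPR/Cas9 left small deletions in both alleles of Baf53a and a resistant Baf53a cDNA was expressed under control of tetracycline (Tet). Tet shuts this cDNA off. Each group was transfected with an expression vector for Baf53a or for Baf53b, and 48 h later was given 1 μg/mL Tet for 6 days, in serum medium with LIF. One pair of RNA samples was taken, which gave 1 array per group, and both arrays lay on the same slide. No difference below therefore has a replicate check, and none was tested. The comparison asks whether cells kept alive by Baf53b carry the transcripts of dividing cells at the levels found with Baf53a.

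Entry into mitosis is driven by Cdk1 bound to cyclin B, which Cdc25 phosphatases activate and which the kinases Plk1, Aurora A and Aurora B assist. The spindle assembly checkpoint then holds back the anaphase-promoting complex (APC/C) until every kinetochore is attached, after which securin and cyclin B are destroyed and the cell divides. Transcripts of these proteins accumulate together late in the cell cycle, and ES cells, which divide fast and have a short G1 phase, are known to contain many of them.

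The forms of Baf53 were looked at first. The Actl6b probe gave a signal of 3.40 in Baf53a-expressing cells, not well above background, and 119 with Baf53b. This is a rise of at least 14.5-fold when set against the lowest signal that counted as well above background in Baf53a-expressing cells. The Actl6a probe gave 3806 and 3600. It was thus nearly as bright where the Baf53a vector was absent, and whether it reads the mutated endogenous transcript was not analysed here. All 10 ES cell markers were well above background on both arrays. All lay within 0.2 of equality on the log2 scale, from -0.15 for Esrrb to 0.07 for Sox2. In Baf53b-expressing cells 8 of the markers were lower and 2 were higher. When all genes were put into 5 equal classes by mean level, 9 of the 10 markers were in the brightest class. In that class 93.6% of all genes lay within 0.2 and 75.9% were lower, so these counts say little about the markers themselves. The summed signal of the markers, scaled to the 75th percentile of each array, was 324 in Baf53a- and 313 in Baf53b-expressing cells, with Dppa5a as the brightest. The label of ES cells therefore fitted both samples.

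The G2 and mitosis genes had nearly the same signal in both groups. Levels are given as the log2 signal of a gene's probes relative to the 75th percentile of the array, and differences as Baf53b- minus Baf53a-expressing cells. All 54 probes were well above background on both arrays and 0 were saturated. Of the 38 genes, 0 differed by 2-fold, where 0.193% of all named genes did (32 of 16608). In all, 30 of 38 lay within 0.1 of equality, against 52.2% of all genes, and 36 of 38 within 0.2, or 94.7% against 80.5%. Only Aurkb and Cenpf were higher by at least 0.2 in Baf53b-expressing cells, where 12.7% of all genes were, and 0 members were lower by as much, where 6.85% of all genes were. Both genes had a dim probe and fell below 0.2 after quantile normalization (0.15 and 0.14), after cyclic loess (0.15 and 0.13) and when arrays were centered on the median (0.19 and 0.16). The median difference of the members was -0.014 and that of all named genes was -0.0032. Differences ran from -0.16 for Plk1 to 0.24 for Aurkb, with an SD over the 38 genes of 0.089, against 0.188 over all genes. Because RNA was taken from whole dishes, fewer cells in G2 and mitosis and less RNA per such cell cannot be told apart.

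**Figure D1:**
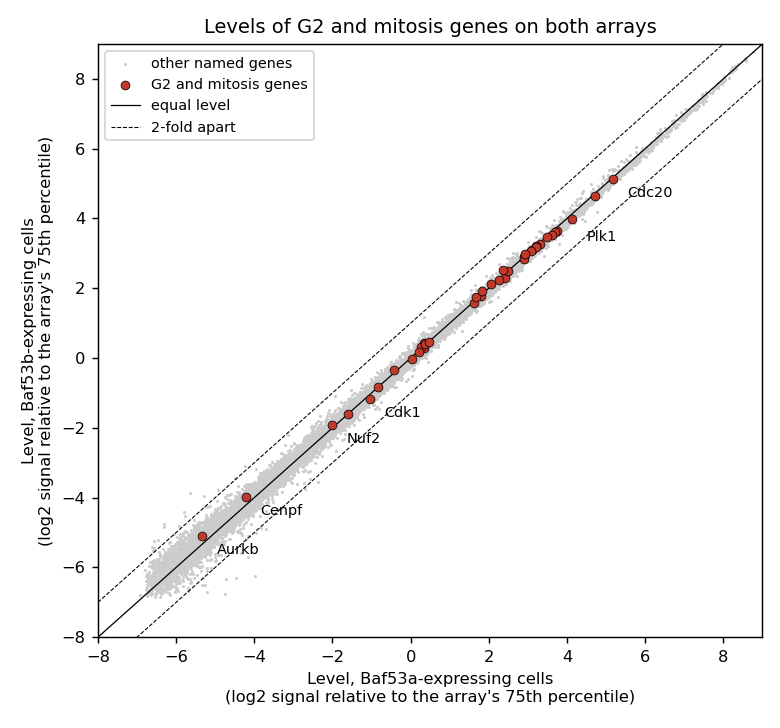
Level of each named gene in Baf53a-expressing cells (x axis) and Baf53b-expressing cells (y axis), as log2 signal relative to the 75th percentile of its array, with 1 array per group. The 38 G2 and mitosis genes (red) follow the line of equal level, and 0 of them reach the dashed lines that mark 2-fold.

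Most members had bright probes, and bright probes varied little on these arrays. When all genes were put into 5 equal classes by mean level, 24 of the 38 members (63.2%) were in the brightest class, 8 in class 4 and 4 in class 3, and only Cenpf (class 2) and Aurkb (class 1) were dimmer. Within the brightest class 93.6% of all genes lay within 0.2, and all 24 members there did. The share of genes higher by 0.2 in that class was 2.08% and the share lower was 4.33%. Beside genes of like brightness, the small differences of the members were thus close to the background.

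Differences also followed brightness over the whole array. The median of all genes ran from 0.085 in the dimmest class to -0.062 in the brightest, where 75.9% of all genes were lower in Baf53b-expressing cells. The 24 members in the brightest class had a median of -0.023, with 17 lower and 7 higher, and 19 of them lay above the median of their class. Over the 38 members, level and difference had a Spearman rho of -0.46 and a Pearson r of -0.57. Over all genes rho was -0.30. These are descriptions across genes of the same pair of arrays, which are not independent replicates. Signs of small differences changed with the scaling. In the scaling used here 23 members were lower and 15 higher, where 50.9% of all named genes were lower, and after cyclic loess, which removes a trend with brightness, 12 were lower and 26 higher. Over all named genes the shares higher and lower by 0.2 were 12.7% and 6.85% in the scaling used here, and 9.57% and 8.82% after cyclic loess.

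**Figure D2:**
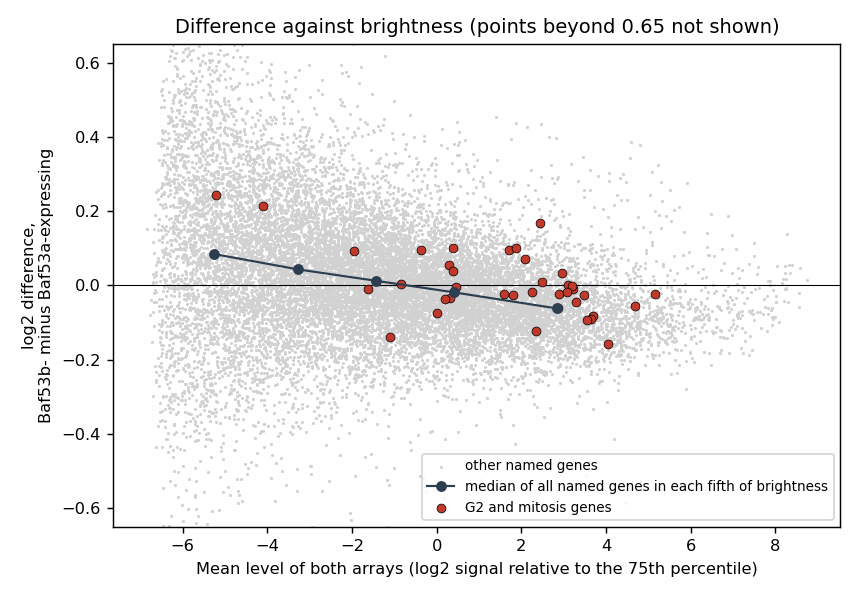
Difference of each named gene (y axis, log2, Baf53b- minus Baf53a-expressing cells) against its mean level on both arrays (x axis, log2 relative to the 75th percentile), with the median of all named genes in each of 5 classes of brightness as a line. The line runs from 0.085 to -0.062, and of the 38 G2 and mitosis genes (red), most of them on the bright side, 27 lie above the median of their class.

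Some measure of technical error was at hand. The extraction software states an error for each spot, and for a member's difference this came to a median of 0.204 on the log2 scale. For bright probes of the members it was 0.204 in every case, so it acted as a nearly fixed limit. A count of members below it thus says little beyond the 36 of 38 within 0.2. For genes with several probes the errors were combined as if independent. For Bub1 the mean error of single spots was not reduced for its 10 spots. The differences of 36 members were smaller than their own error found in this way. That of Cdk1 was larger only because the errors of its 3 probes were combined to 0.119. The difference of each of these probes was within that probe's own error, from 0.204 to 0.208. That of Aurkb was larger narrowly (0.245 against 0.243). After cyclic loess Aurkb fell to 0.15, below this error. With background correction by normexp Cdk1 stood at -0.098, within its error of 0.119. The 324 probes with at least 5 spots gave a second measure. The SD of a difference between single spots was 0.059 in the brightest class of probes and 0.274 in the dimmest. By this measure Plk1, Bub1 and Cenpe lay more than 2 spot SDs of their class from 0, and after cyclic loess these genes were Cenpe, Espl1 and Hmmr. With arrays centered on the median there were 6, Bub1, Bub3, Ccnb2, Cdk1, Plk1 and Ube2c, without Cenpe. These lists of genes are rough. The limit is that of single spots in classes of probes, while a gene's value can average several probes or spots and has a class among genes. Cdk1 was in class 3 among genes, while its probe at -0.15 was in the brightest class of probes. Neither measure holds variation between dishes, transfections or hybridisations.

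The promoters of the members carry letters that cell cycle genes are known to share. The DREAM and MMB complexes and the factor NF-Y are known to bind such promoters at CHR and CCAAT elements. RefSeq windows of the assembly GRCm38.p6, from 250 bases before to 50 bases after a gene start, were held for 32 of the 38 members, and were not held for Ccna2, Cdc25c, Aurkb, Incenp, Tpx2 and Kif20a. Letters like a CHR (TTTGAA or TTCGAA, on either strand) stood in 25 of 32 members (78.1%) and in 21.7% of all 27025 genes with a window. Within 50 bases of the start they stood in 23 of 32 members (71.9%) and in 6.12% of all genes. CCAAT, on either strand, stood in 25 of 32 (78.1%) against 41.1%, and at least 2 such matches stood in 17 of 32 (53.1%) against 13.3%. Both kinds of letters occurred in the same window in 22 of 32 members (68.8%) and in 8.61% of all genes. A match is a run of letters and not a shown binding site, and TTCGAA, which reads the same on both strands, was counted 1 time.

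**Figure D3:**
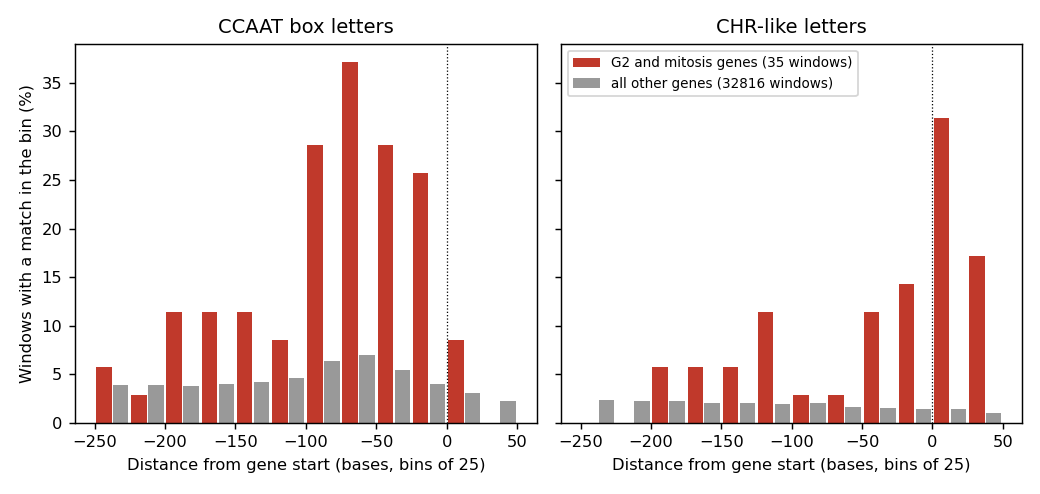
Share of promoter windows (y axis, percent) with CCAAT (left) or CHR-like letters (right) in each bin of 25 bases by distance from the gene start (x axis), for 35 windows of the G2 and mitosis genes (red) and 32816 windows of all other genes (grey). CCAAT in the members is most frequent 75 to 51 bases before the start, in 37.1% of windows against 6.95%, and CHR-like letters just after the start, in 31.4% against 1.40%.

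The 100 bases before the start of 5 members with both kinds of letters are shown 5′ to 3′ on the strand of the gene, with CCAAT (or ATTGG) and CHR-like letters (or TTCAAA) in capitals, since they show how closely the elements stand together. They belong to Cdk1 (chr10:69352913-69353012, minus strand), Cdc20 (chr4:118437344-118437443, minus), Ube2c (chr2:164769829-164769928, plus), Espl1 (chr15:102296193-102296292, plus) and Kif11 (chr19:37376282-37376381, plus), all on GRCm38.p6.
Cdk1: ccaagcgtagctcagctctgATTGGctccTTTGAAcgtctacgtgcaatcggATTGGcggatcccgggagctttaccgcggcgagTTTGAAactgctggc
Cdc20: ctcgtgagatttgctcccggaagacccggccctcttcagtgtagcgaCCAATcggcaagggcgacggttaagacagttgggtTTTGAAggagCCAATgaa
Ube2c: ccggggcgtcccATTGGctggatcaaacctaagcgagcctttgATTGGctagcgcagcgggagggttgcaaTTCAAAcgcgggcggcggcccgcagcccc
Espl1: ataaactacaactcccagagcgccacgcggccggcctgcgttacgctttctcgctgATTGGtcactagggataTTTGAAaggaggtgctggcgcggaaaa
Kif11: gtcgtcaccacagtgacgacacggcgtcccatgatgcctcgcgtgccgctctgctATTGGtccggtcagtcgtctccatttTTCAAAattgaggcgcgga
In other members the CHR-like letters lay at or just after the start. Stretches of 24 bases around them are given with those letters in capitals for Plk1 (chr7:122159456-122159479, plus), Bub1 (chr2:127831831-127831854, minus), Cenpf (chr1:189688070-189688093, minus), Hmmr (chr11:40733415-40733438, minus) and Aurka (chr2:172370524-172370547, minus).
Plk1: agcgccgcgTTTGAAttcggggag
Bub1: cgcggggaaTTCGAAtcgccggcg
Cenpf: ggcgggcagTTTGAAtcgctcgtg
Hmmr: tgaggtaaaTTTGAAttcaggcga
Aurka: aggagaaccTTTGAAttgtaacgg
These 10 members ran from -0.16 (Plk1) to 0.21 (Cenpf), so genes with the same letters did not share a direction.

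Among the cyclins, Cdk1 and its phosphatases, 5 of 6 genes were lower in Baf53b-expressing cells, with a median of -0.05, and 4 of 6 were lower after cyclic loess. This count and those of the other roles stand beside 50.9% of all named genes lower and 75.9% of those in the brightest class. Cdk1, the kinase that drives cells into mitosis, had a level of -1.03 in Baf53a- and -1.17 in Baf53b-expressing cells, a difference of -0.14. Its 3 probes had signals of 7339, 232 and 107 in Baf53a-expressing cells, a 68.5-fold range, and yet gave differences of -0.15, -0.13 and -0.14. Ccnb1, a mitotic cyclin that binds Cdk1, went the other way, with 2.04 and 2.11, and its 3 probes lay between 0.04 and 0.11. Ccnb2, the other major B-type cyclin, had 3.73 and 3.65. Ccna2, the cyclin of S and G2 phases, was nearly equal, with 2.91 and 2.88. Of the phosphatases that activate Cdk1, Cdc25b had 0.04 and -0.03, and Cdc25c had -1.61 and -1.62. Both B-type cyclins thus lay within 0.1 of equality, on opposite sides of it.

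The mitotic kinases spanned a wider range. Plk1, the polo-like kinase that acts from mitotic entry to cytokinesis, had a level of 4.13 in Baf53a- and 3.97 in Baf53b-expressing cells, 1.12-fold lower, from signals of 20335 and 17699. It was the lowest of the 38 genes in this scaling, and Cdk1 (-0.16) was the lowest after cyclic loess. Aurka, the kinase of centrosomes and spindle poles, had 3.32 and 3.28, and Nek2, which acts in the separation of centrosomes, had 0.33 and 0.43. The 3 kinases thus did not share a direction, and the difference of each was smaller than its error stated by the software.

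All spindle assembly checkpoint genes but Ttk were lower in Baf53b-expressing cells, by small amounts, with a median of -0.03, and after cyclic loess 3 of 5 were lower. Bub1, a checkpoint kinase at kinetochores, was the only member with a probe in several spots, 10 on each array. Its spots ran from 2.37 to 2.46 with a median of 2.40 in Baf53a-expressing cells and from 2.17 to 2.35 with a median of 2.28 in Baf53b-expressing cells. In this scaling the spots of both arrays did not overlap, and their means differed by -0.12 ± 0.019 (SE over spots, which repeat the same RNA). After cyclic loess the difference was -0.08. Bub3, the partner of Bub1, had 3.70 and 3.61. Bub1b, which encodes BubR1, a part of the inhibitor of the APC/C, had 1.81 and 1.78. For Mad2l1, the checkpoint protein Mad2, all 3 probes lay between -0.04 and -0.03. Ttk, the kinase Mps1 that starts checkpoint signalling, had -0.83 on both arrays. Bub1, Bub1b and Bub3 were in the brightest class, where the median of all genes was -0.062.

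Genes of APC/C activation and its targets had a median of -0.02, with 3 of 4 lower, and of 0.019 after cyclic loess, with 2 of 4 lower. Cdc20, the activator of the APC/C and the member with the brightest probe, had signals of 41661 and 39848, levels of 5.17 and 5.14. Ube2c, the ubiquitin-conjugating enzyme of the APC/C, had 3.61 and 3.51, with both probes lower (-0.11 and -0.08). Pttg1, or securin, which inhibits separase until anaphase, had probes on both sides: the bright probe with a signal of 34838 gave -0.15 and the dim probe with 362 gave 0.11. The mean of -0.02 for Pttg1 is therefore not shared by either probe. Espl1, or separase, which cleaves cohesin, was higher in Baf53b-expressing cells, with 1.66 and 1.76.

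In the chromosomal passenger complex, the kinase was higher in Baf53b-expressing cells and its partners lay close to equality. Aurkb, its kinase, had levels of -5.33 and -5.08, a difference of 0.24, or 1.18-fold, the largest of the 38 in this scaling, while after cyclic loess that of Cenpe (0.21) was larger. The values of Aurkb came from a single dim probe with signals of 28.9 and 33.3, in a class of genes in which the SD of all differences was 0.299 and the median was 0.085. The other subunits had bright probes and smaller differences. Incenp, the scaffold of the complex, had 4.71 and 4.65, with probes at -0.06 and -0.05. Cdca8, or borealin, had 2.91 and 2.84, with probes at -0.10 and -0.02. Birc5, or survivin, had 2.48 and 2.49, with 3 probes from -0.04 to 0.04. Aurkb lay 0.16 above the median of its class, less than the SD of that class. Which part of the transcripts the Aurkb and Cenpf probes match was not analysed here, so their low signals need not mean low levels of these transcripts.

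Centromere and kinetochore genes were higher in 4 of 5 cases, with a median of 0.09. With only the brightest probe of each gene it was 3 of 5, and with the stricter filter on dim probes it was 2 of 4 with a median of 0.022. The 34 further kinetochore and checkpoint genes described below had a median of -0.037, with 24 lower. This was 70.6%, between the 50.9% of all named genes and the 75.9% of the brightest class. Their median was -0.017 after cyclic loess and -0.088 with arrays centered on the median. Cenpe, a kinesin that moves chromosomes to the spindle equator, had levels of 2.35 and 2.52, 1.12-fold higher in Baf53b-expressing cells, from signals of 5934 and 6479. Among the members in the brightest class it was the highest, 0.23 above the median of that class. Cenpf, a large protein of the outer kinetochore, had -4.21 and -3.99, a difference of 0.21 from a dim probe with signals of 62.9 and 70.8. Ndc80, which binds microtubules at the kinetochore, had 0.26 and 0.31. Its partner Nuf2 had probes that disagreed, with -0.09 at a signal of 1453 and 0.27 at a signal of 57.2. Cenpa, the histone H3 variant of centromeres, was the exception, with 3.22 and 3.21. The 2 values of at least 0.2 among these probes thus both came from dim probes. Cenpe, with a bright probe, stood below 0.2, at 0.17.

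Spindle motors and microtubule proteins were higher in 3 of 4 cases, with a median of 0.07, and in 2 of 4 cases, with a median of 0.016, when arrays were centered on the median. Kif11, or Eg5, the motor that pushes spindle poles apart, had -0.43 and -0.33. Hmmr, a microtubule-associated protein of the spindle, had 1.82 and 1.92. Kif2c, or MCAK, which depolymerises microtubules, had 0.36 and 0.40, with probes at -0.02 and 0.10. Tpx2, which activates Aurora A on the spindle, was on the other side, with 0.22 and 0.18. The largest of these differences, that of Hmmr, was 0.10.

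The genes of the central spindle and cytokinesis differed little from each other, from -0.02 to 0.00, with an SD over the 5 genes of 0.011. Their median of -0.0040 became 0.032 after cyclic loess, with all 5 higher, and -0.055 with arrays centered on the median, with all 5 lower. Kif20a and Kif23, kinesins of the central spindle, had 3.11 on both arrays and 0.46 on both arrays. Prc1, which bundles microtubules of the central spindle, had 3.20 on both. Ect2, the exchange factor that activates RhoA at the cleavage plane, had 3.08 and 3.06, and Anln, or anillin, of the contractile ring, had 3.50 and 3.47. Chromosome structure was alike: Top2a, the topoisomerase that separates sister DNA, had 2.26 and 2.24, and Mki67, the proliferation marker Ki-67 that coats mitotic chromosomes, had 2.94 and 2.97. Across all roles, 12 genes had several probes, and the probes of a gene had the same sign in 7 and different signs in 5.

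**Figure D4:**
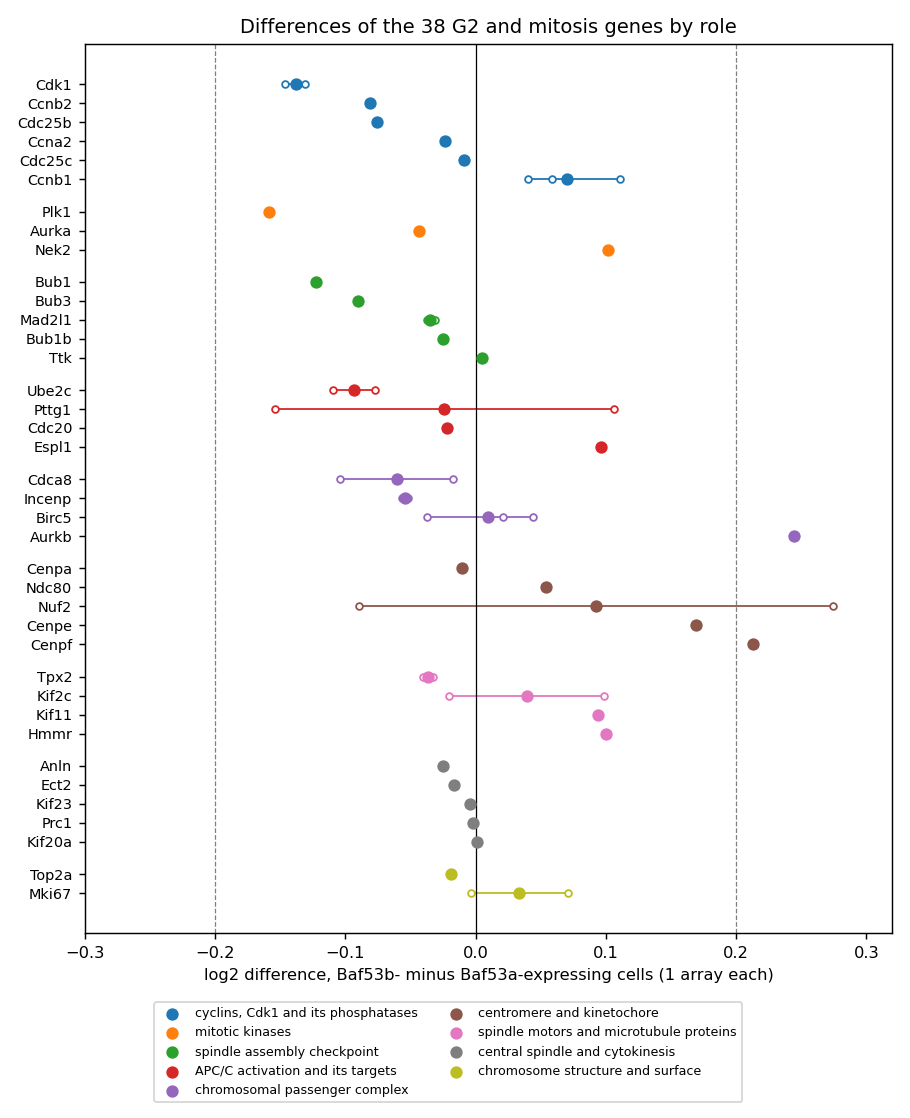
Difference of each of the 38 genes (log2, Baf53b- minus Baf53a-expressing cells, 1 array each) by role, with filled points for the gene and open points joined by a line for the probes of genes with several. Dashed lines mark 0.2 either way; Aurkb (0.24) and Cenpf (0.21) lie beyond them, and the genes of the central spindle and cytokinesis lie between -0.02 and 0.00.

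Most other genes of mitosis also had small differences. Of 143 further genes in 5 lists, 142 were measured, with a median of -0.021, 86 lower and 56 higher, and 0 at least 2-fold apart. The share lower was 60.6%, between the 50.9% of all named genes and the 75.9% of the brightest class, which held 58 of the 142. These further genes ran from -0.26 to 0.50 with an SD of 0.107. By 0.2 or more, 5 of them were higher and 2 were lower, against the shares of 12.7% and 6.85% over all genes. All 34 further kinetochore and checkpoint genes lay within 0.2, from Mad2l1bp (-0.13) and Mad1l1 (-0.12), both partners of Mad2, to Cenpt (0.09) and Knl1 (0.18), a kinetochore scaffold. Cohesin and condensin genes lay within 0.2 in 21 of 21 cases, from the condensin subunit Ncaph (-0.19) and the cohesin subunit Smc1a (-0.11) to the condensin subunit Ncapg2 (0.09) and the cohesin acetyltransferase Esco1 (0.12). Among 17 APC/C subunits and cofactors, 11 were lower (64.7%, between the 50.9% of all genes and the 75.9% of the brightest class), and their median of -0.041 became 0.0086 after cyclic loess. The E2 enzyme Ube2s and the subunit Anapc2 both gave -0.18, while the subunits Cdc23 (0.22) and Anapc10 (0.36) were higher, in brightness classes 2 and 1.

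Spindle, centrosome and cytokinesis genes outside the members were measured in 39 of 40 cases, with no probe matched for Kif14, and had a median of -0.0068. This median became 0.029 after cyclic loess and 0.025 after quantile normalization. The lowest were Kif22 (-0.26), a chromosome-bound kinesin, and Trip13 (-0.11), which disassembles checkpoint complexes. Troap (0.17) and Kif3b (0.50), a motor subunit, were the highest. Kif3b had the largest difference among the members and these further lists, at levels of -4.94 and -4.44 in the dimmest class. Of 31 genes of G2/M control and transcription factors, 17 were lower and 14 higher (54.8% lower, against 50.9% of all named genes). E2f3 (-0.21), an E2F factor, and Lin37 (-0.19), a DREAM subunit, were lowest, and Rbl2 (0.27), the pocket protein p130, and Rbbp4 (0.28), a histone chaperone that is also a DREAM subunit, were highest.

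The earlier phases of the cell cycle were compared as the most similar sets. DNA replication and S phase genes were measured in 45 of 46 cases, Ccne2 not being well above background, and had a median of -0.043, with 32 lower and 13 higher (71.1% lower, against 75.9% in the brightest class, which held 31 of the 45). After quantile normalization and after cyclic loess this median was 0.0013. One of them, the polymerase subunit Pold1 (-0.20), passed 0.2. The helicase subunit Mcm5 stood at -0.19, the sliding clamp Pcna at -0.03, and Ccne1, which encodes cyclin E1, was the highest at 0.18. G1 cyclins and CDK inhibitors were measured in 11 of 12 cases, without Cdk6, with a median of 0.018. This median turned to -0.0063 after cyclic loess and to -0.033 with arrays centered on the median. Cdkn1c (-0.24), which encodes p57, and Cdk4 (-0.16) were lowest, and Cdkn2a (0.12) and Cdkn2b (0.18), the INK4 locus inhibitors, were highest. Cdkn1a, or p21, the p53 target that stops the cycle, had -0.95 and -0.98, a difference of -0.03. No difference between these lists and the G2 and mitosis genes was tested.

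**Figure D5:**
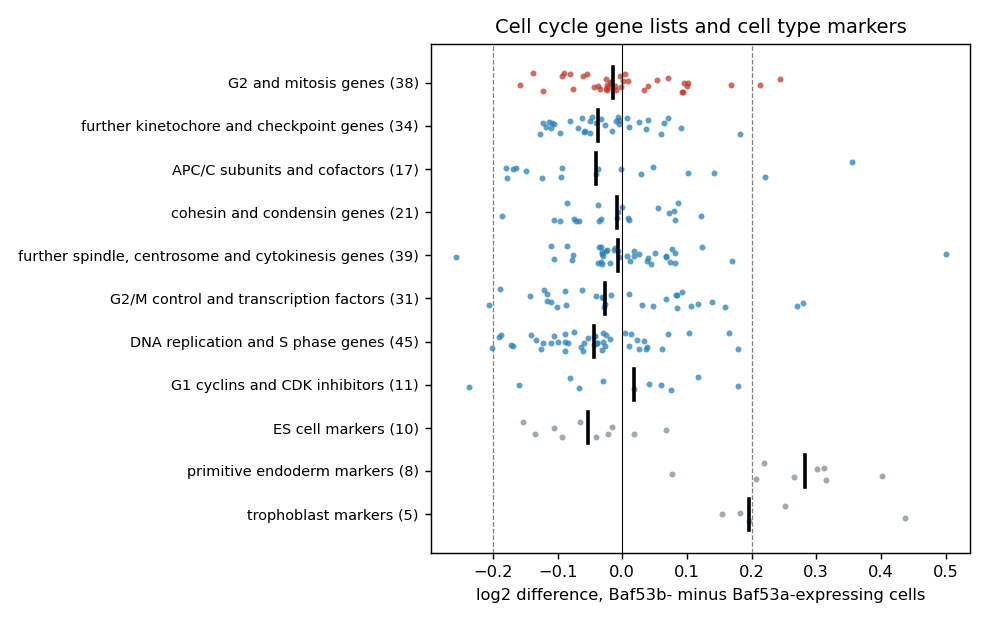
Difference of each measured gene (x axis, log2, Baf53b- minus Baf53a-expressing cells) in the G2 and mitosis genes (red), other cell cycle lists (blue) and ES cell, primitive endoderm and trophoblast markers (grey), with the number measured in brackets and the median as a black bar; dashed lines mark 0.2. The cell cycle lists centre near 0, and primitive endoderm and trophoblast markers lie to the right, with medians of 0.28 and 0.20.

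Markers of other cell types that a culture of ES cells can hold were read beside these genes. All 8 primitive endoderm markers were higher in Baf53b-expressing cells, 7 of them by at least 0.2, with a median of 0.28, where 50.9% of all genes were lower and 12.7% were higher by 0.2. After cyclic loess the median was 0.26. Their summed scaled signal was 20.9 and 25.7, 1.23-fold, with Lama1 as the brightest (4.24 and 4.54), and Dab2 differed most (0.40). Most of both sums came from Lama1, so their ratio was largely that of Lama1. All 5 trophoblast markers measured were higher, 2 of them by at least 0.2, with a median of 0.20, which was 0.19 after cyclic loess, and sums of 5.83 and 7.32. Krt8 was the brightest and differed by 0.44, while Elf5 was not well above background on either array. Mesoderm markers had a median of -0.12, which turned to 0.054 with the stricter filter on dim probes and to 0.0035 with background correction by normexp, and sums of 1.18 and 1.22, with 3 lower and 2 higher, Kdr as the brightest and Mixl1 not well above background. Neural ectoderm markers had a median of -0.05, which turned to 0.0059 with background correction by normexp. Their sums were 8.97 and 8.16, mostly from Tubb3, the brightest, and Otx1 was not well above background. Eomes was counted under both trophoblast and mesoderm. The part of these cells in the differences of the G2 and mitosis genes was not tested.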

How the data were processed

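RNA was labeled with Cy3 and hybridized to 1-color Whole Mouse Genome arrays annotated on mm9. The authors used Agilent Feature Extraction 11.0.1.1 with default parameters and deposited spot intensity values after background subtraction and spatial detrending. The authors also deposited a table of 30488 probes, each value a ratio to 1 number per array (1160 and 1126, found here from the spots, as no source states it), with medians of 0.257 and 0.262.

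Here, control spots and outlier spots (173 and 143 of 43020) were left out, log2 intensities were averaged per probe, and each array was scaled to its 75th percentile (signals of 1161 and 1128). Detection required the software's flag on 50% or more of a probe's spots, and a gene took the mean of its probes detected on both arrays (29247 of 39411 usable probes). Detected signals began at 8.45 and 9.75, and the number of arrays limits the precision. Names and promoters came from RefSeq tables of GRCm38.p6, which was not used for positions on mm9. Alternatives concerned scaling, background correction, filters, spots, probes, the flag and the authors' table. Members and lists were chosen with earlier results of these data known. All members were named, with the 2 most extreme genes at each end of every other cell cycle list, Cdkn1a and Pcna. Of the markers, the brightest and those not detected were named, with Esrrb, Sox2, Dab2 and the shared Eomes chosen after their values were seen. A gene that this rule would name is not reported here. The steps were tested on simulated data. Python 3.11.15, pandas 2.3.3, R 4.3.3 and limma 3.58.1 were used.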

Additional observations from a re-analysis of the deposited data

How the results depend on the processing

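No paired analysis was possible because each condition had 1 array, and for the same reason no replicate could be left out. The count of G2 and mitosis genes at least 2-fold apart was 0 under all 10 alternatives. The count higher by at least 0.2, 2 in the values reported, was 1 with quantile normalization and 1 with cyclic loess (Aurkb falling to 0.15 in both and Cenpf to 0.14 and 0.13, while Cenpe reached 0.21), 0 when each array was centered on its median and 0 with the stricter filter, which removed the dim probes of Aurkb and Cenpf. The count lower by 0.2, reported as 0, was 1 when arrays were centered on the median (Plk1, -0.21). The median of the members ran from -0.065 with median centering, which moved the median of all genes to -0.054, to 0.029 with quantile normalization. Members were lower in 13 and higher in 25 cases with quantile normalization, against 23 and 15. The shares of all named genes higher and lower by 0.2 were 9.0% and 9.41% with quantile normalization and 9.13% and 12.9% with median centering. Over all alternatives 9 members stayed lower (Bub1, Bub3, Ccnb2, Cdc25b, Cdca8, Cdk1, Mad2l1, Plk1 and Ube2c), 9 stayed higher (Aurkb, Ccnb1, Cenpe, Cenpf, Espl1, Hmmr, Kif11, Ndc80 and Nek2, of which Aurkb and Cenpf had no value under the stricter filter) and 20 changed sign in at least 1. With only the brightest probe of a gene, Pttg1 stood at -0.15, Nuf2 at -0.09 and Kif2c at 0.10. The background correction used the median spot signal, the mean not being used here. Apart from the probes removed by the stricter filter, the cause of these moves was not tested.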

Other observations

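The members without CHR-like letters in their promoter windows were Birc5, Ccnb1, Cenpe, Mad2l1, Nek2, Nuf2 and Pttg1. In these 7 genes the median difference was 0.070, with 2 lower and 5 higher in Baf53b-expressing cells, from -0.03 for Mad2l1 to 0.17 for Cenpe. In the 25 members with such letters it was -0.019, with 17 lower and 8 higher, from -0.16 for Plk1 to 0.21 for Cenpf. Of all named genes 50.9% were lower, and of those in the brightest class 75.9%. After cyclic loess the median was 0.062 without such letters, with 2 lower and 5 higher. With them it was 0.025, and the counts were reversed, with 8 lower and 17 higher. With only the brightest probe of each gene the median without the letters was -0.037, with 4 lower and 3 higher. With them it was -0.019, with 18 lower and 7 higher. The direction of this split in medians thus rests on the dimmer probes of genes with several. The share of lower genes stayed larger with the letters. By CCAAT, 25 members with the letters had a median of -0.017 and 7 without had 0.0094, and with only the brightest probe these were -0.017 and -0.037. After cyclic loess they were 0.025 and 0.054. This split was made after the values were seen, both sets overlap over most of their range, and neither difference was tested.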
